A study of Homo sapiens with 18 samples.

Results

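The genes described are 3 bone morphogenetic protein (BMP) ligands, *BMP2*, *BMP4* and *BMP7*, the 4 inhibitor of DNA binding genes *ID1*, *ID2*, *ID3* and *ID4*, and 3 feedback inhibitors of the pathway, *BAMBI*, *SMAD6* and *SMAD7*. They were chosen by name, with their levels in these data known, and they are 10 of the 10975 genes listed for the first wild-type (WT) series. Of the 10, the 7 genes *BMP2*, *ID1*, *ID2*, *ID3*, *ID4*, *BAMBI* and *SMAD6* are also among the 497 genes listed for WT Rep. 2 and the mutant clones. *BMP4*, *BMP7* and *SMAD7* are not listed there. The 497 genes come from a set that the study chose for its change in the first WT series, so the listing of a gene in the second table is itself read from the first.

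RNA-Seq was measured in H1, an established line of human embryonic stem cells, kept in E8 medium. Cells received storage buffer (0 h) or 1 nM Wnt3a, a ligand that activates β-catenin signaling, for 12, 24 or 48 h. The 4 series are the first WT series, WT Rep. 2, and the clones dZF1 and dZF2, with 1 library for each series and time. Each clone grew from a single CRISPR-Cas9-edited cell and carries deletions, in both alleles, of the sequence that encodes the zinc fingers of SP5, a WNT target and transcription factor of the SP/KLF family. A difference between the clones and WT therefore cannot be told apart from what editing and cloning brought with them, and whether the libraries came from separate cultures is not stated, so the p-values given measure the spread between these libraries. SP5 ChIP-Seq peaks were also deposited.

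BMP ligands are secreted proteins that bring together type I and type II receptor kinases. The type I receptors phosphorylate SMAD1, SMAD5 and SMAD9, which enter the nucleus with SMAD4 and activate target genes. The *ID* genes are among the best known of these targets. ID proteins lack a DNA-binding region and hold basic helix-loop-helix factors, such as the E proteins, away from DNA. BAMBI is a receptor-like protein without a kinase, and SMAD6 and SMAD7 are inhibitory SMADs, so their induction closes negative feedback loops. In pluripotent cells the pathway is known for its part in the onset of mesoderm and extraembryonic differentiation.

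The depth of each RNA library is unknown, because neither table gives read counts. In the first WT series all 6 pluripotency markers examined were listed, and their summed level went from 2172.6 RPKM at 0 h to 1563.9 at 48 h. The fall was not even, as *LIN28A* went from 1014.1 to 784.7 RPKM, *TDGF1* from 228.5 to 208 and *NANOG* from 3.3 to 3.4. The 4 mesendoderm markers *T*, *MIXL1*, *EOMES* and *GSC* summed to 0.7 RPKM at 0 h, 459.9 at 24 h and 253.5 at 48 h. After 24 h *T*, *MIXL1* and *GSC* fell, *MIXL1* from 271.1 to 76.4 RPKM, whereas *EOMES* rose from 109.3 to 139.8. The 5 definitive endoderm markers summed to 4 RPKM at 0 h and 285.5 at 48 h, with *SOX17* at 0 RPKM at 0 and 12 h. Of 4 neural markers *OTX2* alone was listed, at 49.4 RPKM at 0 h and 137.6 at 48 h. None of 6 trophectoderm or amnion markers was listed, which here means a level under 4 RPKM at every time or a row not analysed here. The WT series did not run in step. *SP5* was at 49.8 RPKM at 12 h and 135.7 at 48 h in the first series, whereas in WT Rep. 2 it was at 0.02 of its maximum at 12 h and 0.09 at 24 h. The median log2 change of the 497 genes at 24 h was 0.64 in the first series and 0.08 in WT Rep. 2. *SP5* RNA reached 2.54 and 2.61 times the WT Rep. 2 maximum in dZF1 and dZF2 at 48 h, a value over the whole gene that does not check the deletion.

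The first comparison asked how the genes moved with Wnt3a in the first WT series. At 48 h, 7 of the 10 were at least 2-fold higher than at 0 h on RPKM plus 1, *BMP2*, *ID1*, *ID2*, *ID3*, *ID4*, *BAMBI* and *SMAD6*, whereas 4.86% of all 10975 genes were. Because the genes were chosen with this contrast in view, and with 1 library at each time, the count is a description and has no test. *BMP2* and *SMAD6* were under 4 RPKM, the limit of listing, at 0 and 12 h. They are listed only through later, higher levels and so count as risen in part by that limit. The median log2 change was 1.59 over the 10 genes and -0.003 over all genes. On the same scale, 0 of the 10 had changed 2-fold in either direction at 12 h, against 1.94% of all genes, and at 24 h 1 of the 10, *SMAD6*, was 2-fold higher, against 2.62%. On RPKM itself, with no pseudocount, *BMP4* also passed the mark at 24 h, at 2.19-fold, and *BMP2* was at 0.483 times its 0 h level at 12 h, both at levels of a few RPKM. In bulk RNA, a change in how many cells express a gene and a change in RNA per cell cannot be told apart. The endoderm markers moved with the genes at 48 h, and their part in these values was not tested.

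Among the ligands, *BMP2* was listed at 2.9, 1.4, 3.8 and 28.9 RPKM at 0, 12, 24 and 48 h. It stayed within the lowest part of the listed genes until 24 h, at the 6.94 percentile, and stood at the 72.5 percentile at 48 h, a log2 change of 2.94. *BMP4* was at 3.1, 5.3, 6.8 and 5.1 RPKM, highest at 24 h, with a log2 change of 0.57 at 48 h. *BMP7* was at 3.2, 2.6, 2.3 and 4.8 RPKM, with a log2 change of 0.47. The limit of listing was a maximum of at least 4 RPKM, so *BMP2* and *BMP7* are listed only through their 48 h level. A gene at such early levels that did not rise would not be listed. The 3 ligands thus started at much the same level per length, and at 48 h *BMP2* alone stood apart from the other two.

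All 4 *ID* genes were highest at 48 h. *ID1* was at 56.5, 50, 59.6 and 242.2 RPKM, flat to 24 h and 4.06 times its 24 h level at 48 h. *ID3* was the highest of the family at 0 h, at 78.2, 86.2, 94.4 and 222.5 RPKM. *ID2* was at 16.4, 27, 26.8 and 73.1 RPKM. *ID4* was lowest, at 6.7, 11.9, 6.9 and 21.9 RPKM, and its earlier high point at 12 h was followed by a return to the 0 h level. At 48 h the order by RPKM was *ID1*, *ID3*, *ID2* and *ID4*, and with 1 library the first pair cannot be separated. Log2 changes at 48 h were 2.08 for *ID1*, 2.09 for *ID2*, 1.5 for *ID3* and 1.57 for *ID4*.

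Of the feedback inhibitors, *SMAD6* was at 2.4, 2.8, 6.4 and 12.4 RPKM and was already past 2-fold at 24 h on RPKM plus 1. It is listed only through its 24 and 48 h levels. *BAMBI* was at 19, 17.3, 21.6 and 59.6 RPKM, with the step between 24 and 48 h that the *ID* genes also had. *SMAD7* was at 21, 21.2, 12.8 and 34.4 RPKM, lower at 24 h than at 0 h and 1.64-fold higher at 48 h, under the 2-fold mark.

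**Figure D1:**
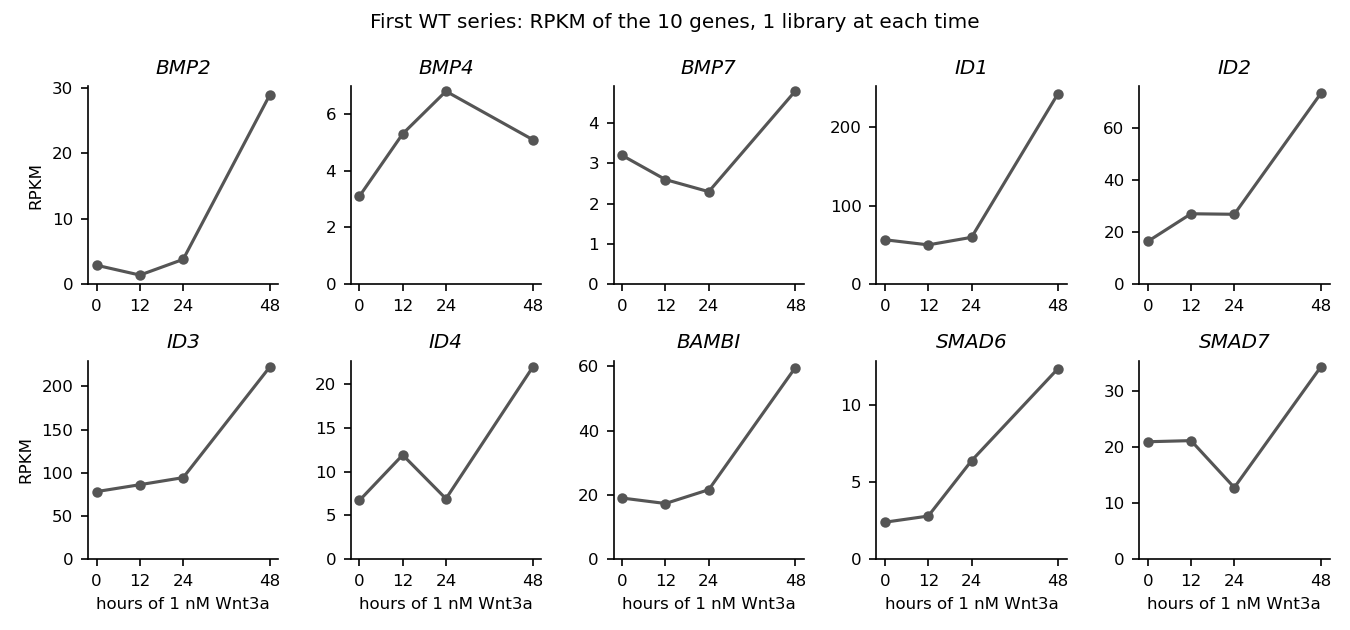
RPKM of the 10 genes in the first WT series (y axis, a separate scale for each gene) against hours of Wnt3a (x axis), with 1 library per point. All genes but *BMP4* are highest at 48 h, *BMP2* at 28.9 RPKM and *ID1* at 242.2, whereas *BMP4* is highest at 24 h, at 6.8 RPKM. As a ratio to 0 h, *ID1*, *ID3* and *BAMBI* change least up to 24 h.

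The bases just upstream of the start sites are shown for *ID1*, *ID2*, *ID3* and *BAMBI*, 4 genes with a step at 48 h, as RefSeq gives them on GRCh38.p14 (chr20:31605039-31605288, plus strand, for *ID1*, chr2:8681806-8682055, plus strand, for *ID2*, chr1:23559502-23559751, minus strand, for *ID3*, and chr10:28677271-28677520, plus strand, for *BAMBI*). Each is 250 bases, 5′ to 3′ on the gene's strand. Capitals mark GGGCGG, the GC box that SP factors recognize, GGGAGG, a variant of it, and GGCGCC, a core described for SMAD1 and SMAD5, on either strand.
ID1: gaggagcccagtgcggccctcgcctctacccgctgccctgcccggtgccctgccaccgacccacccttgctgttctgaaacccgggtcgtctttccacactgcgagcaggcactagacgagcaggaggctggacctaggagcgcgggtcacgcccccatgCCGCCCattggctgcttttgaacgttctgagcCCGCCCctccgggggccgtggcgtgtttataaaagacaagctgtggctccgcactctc
ID2: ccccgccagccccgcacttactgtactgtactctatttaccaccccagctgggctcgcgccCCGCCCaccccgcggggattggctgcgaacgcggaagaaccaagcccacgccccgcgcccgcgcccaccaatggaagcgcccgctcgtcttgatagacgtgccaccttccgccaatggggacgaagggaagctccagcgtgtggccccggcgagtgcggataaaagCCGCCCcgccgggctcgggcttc
ID3: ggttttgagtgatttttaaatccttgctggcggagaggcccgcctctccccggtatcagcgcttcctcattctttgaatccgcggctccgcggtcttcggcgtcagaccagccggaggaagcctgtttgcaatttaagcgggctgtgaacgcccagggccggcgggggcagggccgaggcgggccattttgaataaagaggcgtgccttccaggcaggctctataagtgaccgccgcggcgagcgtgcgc
BAMBI: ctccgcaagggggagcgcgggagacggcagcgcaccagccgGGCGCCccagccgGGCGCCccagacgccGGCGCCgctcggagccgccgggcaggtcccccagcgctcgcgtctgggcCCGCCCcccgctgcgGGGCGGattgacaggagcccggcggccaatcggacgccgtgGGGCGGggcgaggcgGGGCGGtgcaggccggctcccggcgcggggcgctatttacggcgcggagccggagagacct
*ID1* and *ID2* hold 2 GC boxes each, *BAMBI* holds 4 with 3 copies of GGCGCC, and *ID3* holds none of these words. Of the 10 genes, 8 are in the RefSeq promoter table, all but *BMP2* and *BMP7*. Among these 8, GGGCGG was found in *ID1*, *ID2*, *ID4*, *BMP4*, *BAMBI* and *SMAD6*. GGGAGG was found in *SMAD7* alone, and GGCGCC in *BMP4* and *BAMBI*. Of all 27305 promoters of this length, 42.3% held GGGCGG, 44.5% GGGAGG and 16.1% GGCGCC. The TCF/LEF word CTTTGAA was found once, in *ID3*, and in 3.88% of all promoters, and CTTTGAT in none of the 8 and in 2.28%. The SMAD palindrome GTCTAGAC was found once, in *SMAD6*, and in 0.176% of all promoters, and the SMAD-binding word CAGAC in *ID3*, *ID4*, *BMP4*, *BAMBI* and *SMAD7*, against 37.8%. These are letter matches on both strands within 250 bases and no more.

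The second comparison asked whether the changes recurred in WT Rep. 2 and the clones, which were scaled separately from the first series. Each value is a level relative to the highest of the 4 RPKM of WT Rep. 2 for that gene. *BMP2* was at 0.26, 0.41, 0.24 and 1 in WT Rep. 2, at 0.3, 0.18, 0.28 and 2.31 in dZF1, and at 0.1, 0.15, 0.1 and 2.35 in dZF2. The 3 libraries at 48 h lay above all 9 earlier ones. Over the 3 lines *BMP2* rose by 2.84 ± 0.45 (log2 of level plus 0.05, SE, limma with line as a term, adjusted p = 0.000477).

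*ID2* was at 0.64, 0.31, 0.56 and 1 in WT Rep. 2, at 0.42, 0.72, 0.68 and 1.38 in dZF1, and at 0.45, 0.4, 0.56 and 1.7 in dZF2. It rose at 48 h by 1.34 ± 0.30 (limma adjusted p = 0.0029). *ID3* was at 0.6, 0.49, 0.4 and 1 in WT Rep. 2, at 0.74, 0.79, 0.84 and 2.15 in dZF1, and at 1.05, 1.21, 1.91 and 2.57 in dZF2. Its level was above that of WT Rep. 2 in both clones at every time, 0 h included, and it rose at 48 h by 1.14 ± 0.25 (limma adjusted p = 0.00281). *BAMBI* was at 0.91, 0.78, 0.9 and 1 in WT Rep. 2, at 0.63, 0.8, 0.8 and 1.55 in dZF1, and at 0.77, 0.72, 0.98 and 1.58 in dZF2. It rose by 0.78 ± 0.22 (limma adjusted p = 0.00976), with little of that in WT Rep. 2, where the log2 change was 0.13.

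*ID1*, *ID4* and *SMAD6* did not pass the test. *ID1* was at 1, 0.83, 0.73 and 0.48 in WT Rep. 2, lower at each later time, at 0.56, 0.35, 0.55 and 0.68 in dZF1, and at 0.44, 0.27, 0.3 and 0.81 in dZF2. Its change over the 3 lines was 0.03 ± 0.37 (limma adjusted p = 0.946, 95% interval -0.81 to 0.86). *ID4* was at 0.98, 0.7, 1 and 0.35 in WT Rep. 2, at 0.38, 0.48, 0.44 and 0.32 in dZF1, and at 0.34, 0.39, 0.08 and 0.84 in dZF2. The clones were at opposite sides of their 0 h level at 48 h, and the change was -0.13 ± 0.62 (limma adjusted p = 0.860, interval -1.52 to 1.26). *SMAD6* was at 0.58, 0.45, 0.41 and 1 in WT Rep. 2, at 0.53, 0.37, 0.47 and 0.59 in dZF1, and at 0.53, 0.22, 0.31 and 0.7 in dZF2, a change of 0.42 ± 0.22 (limma adjusted p = 0.116).

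**Figure D2:**
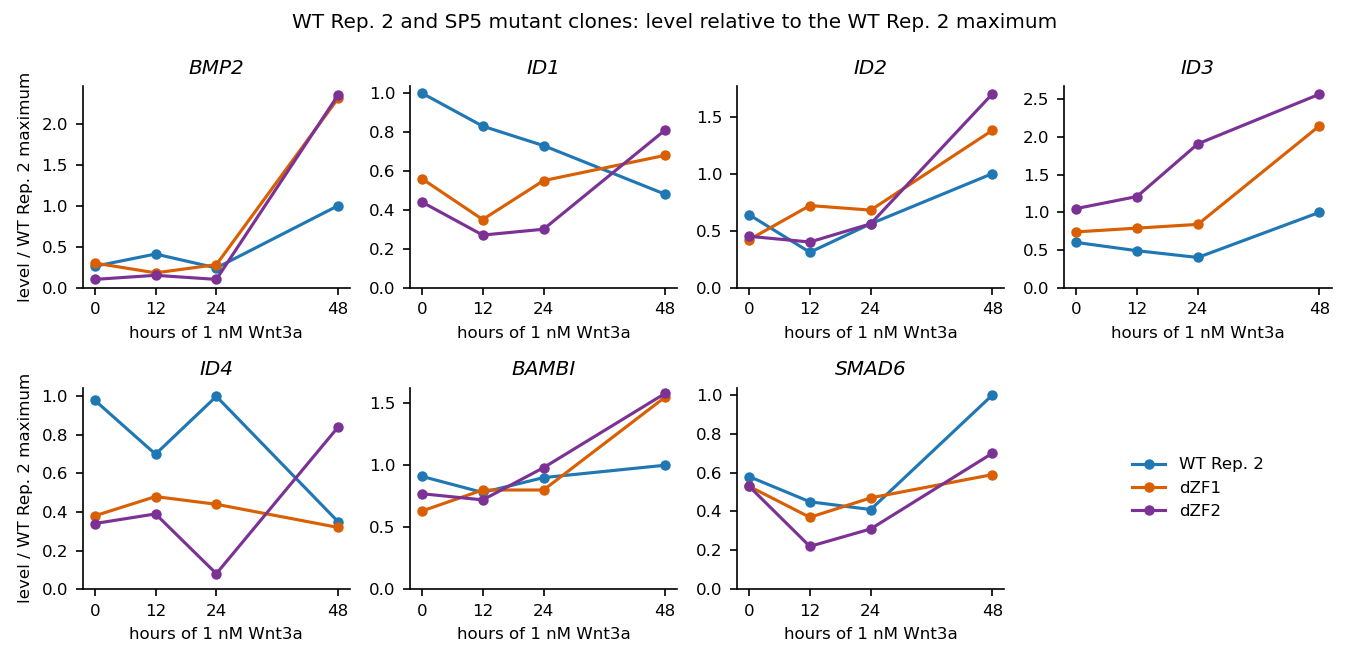
Level of the 7 genes listed for the second experiment, relative to the WT Rep. 2 maximum (y axis), against hours of Wnt3a (x axis), with 1 library per point for WT Rep. 2 (blue), dZF1 (orange) and dZF2 (purple). *BMP2* reaches 2.31 and 2.35 in the clones at 48 h, and *ID1* goes from 1 to 0.48 in WT Rep. 2.

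Thus 4 of the 7 genes passed with a rise at 48 h, and 56.1% of the 497 genes did. In either direction 76.5% of the 497 passed. The table also holds genes that fell with Wnt3a, whereas all 7 had risen in the first series. The 7 therefore do not stand out from a table made of responsive genes. At 12 h 0 of the 7 passed limma, as did 0.0% of the table, where 29 genes had an unadjusted p under 0.05, among them *SMAD6* (-0.63 ± 0.22). At 24 h 0 of the 7 passed, against 19.9% of the table, and 0 had an unadjusted p under 0.05. The median change at 48 h was 0.82 for all 497 genes, raised and lowered together, and 0.78 for the 7. When each library was centred on its own median, which removes a rise of this size, *BMP2* alone passed, at 2.08, while *ID2* was at 0.58, *ID3* at 0.38 and *BAMBI* at 0.03, and *ID1* and *SMAD6* were at -0.73 and -0.34. Without dZF1, 2 of the 7 passed, and *ID3* and *BAMBI* did not (adjusted p = 0.0663 and 0.175 in limma), and without dZF2 *BAMBI* did not (adjusted p = 0.096).

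The direction at 48 h was then set side by side in the 4 series. *BMP2*, *ID2*, *ID3*, *BAMBI* and *SMAD6* were above their own 0 h library in all 4, which is 5 of 7 genes. Of the 497 genes, 301 (60.6%) were above it in all 4 and 115 were below it in all 4. All 7 genes had risen in the first series, so the 60.6% is a low base for them. For *BMP2* the log2 changes were 2.94 for the first WT series, 1.76 for WT Rep. 2, 2.75 for dZF1 and 4 for dZF2. For *ID2* they were 2.09, 0.61, 1.61 and 1.81 in the same order, and for *ID3* 1.5, 0.69, 1.48 and 1.25. For *BAMBI* they were 1.60, 0.13, 1.23 and 0.99, so its rise in WT Rep. 2 was slight. In *BMP2*, *ID2*, *ID3* and *BAMBI*, WT Rep. 2 had the smallest change. *SMAD6* differed, with 1.98 and 0.74 in the WT series and 0.14 and 0.37 in the clones.

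*ID1* and *ID4* went in opposite directions in the WT series. *ID1* changed by 2.08 in the first series and by -0.99 in WT Rep. 2, and was at 0.26 and 0.81 in dZF1 and dZF2. *ID4* changed by 1.57 in the first series and by -1.36 in WT Rep. 2, and was at -0.22 and 1.19 in the clones. The direction was thus shared between the WT series for 5 of 7 genes, against 88.9% of the 497. At 12 h it was shared for 2 of the 7 and at 24 h for 1, against 53.5% and 65.6% of the table. With 1 library on each side none of these differences between the WT series can be tested.

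**Figure D3:**
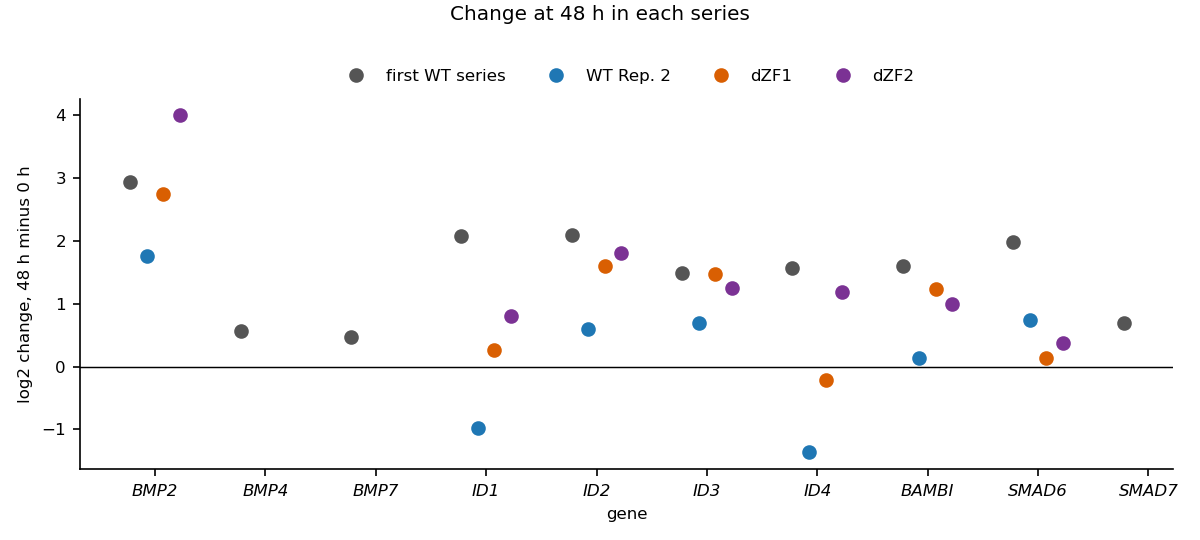
Log2 change from 0 to 48 h (y axis) of each gene (x axis) for the first WT series (on RPKM plus 1) and for WT Rep. 2, dZF1 and dZF2 (on level plus 0.05), with 1 point per series. Points for *ID1* and *ID4* lie on both sides of 0, and *BMP4*, *BMP7* and *SMAD7* have the first series only.

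The third comparison asked whether the response differed between the clones and WT Rep. 2. For *ID1* the change at 48 h was higher in the clones by 1.52 ± 0.45 (95% interval 0.39 to 2.66, limma adjusted p = 0.209). The difference was 1.62 ± 0.63 for *BMP2* (interval 0.04 to 3.19, limma adjusted p = 0.278) and 0.98 ± 0.32 for *BAMBI* (interval 0.19 to 1.77, limma adjusted p = 0.222). None passed, as none of the 497 genes did (0.0%), although 84 genes, 3 of them these, had an unadjusted p under 0.05. For *ID2* the difference was 1.10 (interval -0.13 to 2.33), for *ID3* 0.67 (interval -0.39 to 1.74), for *ID4* 1.85 (interval -1.15 to 4.85) and for *SMAD6* -0.48 (interval -1.62 to 0.66). The test rests on 3 residual degrees of freedom and takes the single WT line to vary like the clones, and the intervals are not adjusted for the 497 genes tested. Those of *ID1*, *BMP2* and *BAMBI* lie above 0, and those of the other 4 genes include it.

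The clones and WT Rep. 2 started from different measured levels of *ID1*. At 0 h *ID1* in the clones was at 0.56 and 0.44 of WT Rep. 2, a log2 difference of -0.94 ± 0.36 (limma adjusted p = 0.303), and at 12 h it was -1.30 ± 0.36 (limma adjusted p = 0.124). At these times 0 of the 7 genes passed, against 0.201% and 0.402% of the table, and *ID1* was the 1 gene of the 7 with an unadjusted p under 0.05 at each. At 48 h both clones were above WT Rep. 2, by 1.42-fold in dZF1 and 1.69-fold in dZF2, a log2 difference of 0.58 ± 0.36 (limma adjusted p = 0.360). *ID4* in the clones was below WT Rep. 2 at 0, 12 and 24 h and at 48 h was at 0.914 times WT Rep. 2 in dZF1 and 2.4 times in dZF2.

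At 48 h the levels of *BMP2*, *ID2*, *ID3* and *BAMBI* in both clones lay above that of WT Rep. 2. *BMP2* stood at 2.31 and 2.35 times WT Rep. 2, *ID3* at 2.15 and 2.57, *ID2* at 1.38 and 1.7, and *BAMBI* at 1.55 and 1.58. *SMAD6* was lower in both, at 0.59 and 0.7. In limma 0 of the 7 passed, against 1.01% of the table, and 1, *BAMBI*, had an unadjusted p under 0.05, with adjusted p = 0.213 for *ID3* (1.19 ± 0.50), 0.175 for *BAMBI* (0.62 ± 0.23) and 0.289 for *BMP2* (1.18 ± 0.59). At 24 h, 14.9% of the table passed and again 0 of the 7, with *ID3* and *ID4* at an unadjusted p under 0.05, the nearest being *ID3*, at 2.1 and 4.77 times WT Rep. 2 (1.55 ± 0.50, adjusted p = 0.0806). The mesendoderm markers *T*, *MIXL1*, *EOMES* and *GSC* were at 0.34, 0.08, 0.05 and 0.1 of the maximum in WT Rep. 2 at 24 h. They were at 0.42, 0.71, 0.94 and 0.74 in dZF1 and at 6.16, 3.27, 1.9 and 1.8 in dZF2. Both clones were thus above WT Rep. 2 for each marker, and the part of this in the clone differences was not tested. In the same dZF2 library *ID4* was at its lowest, 0.08. Whether the marker levels and that of *ID4* are linked was not tested.

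**Figure D4:**
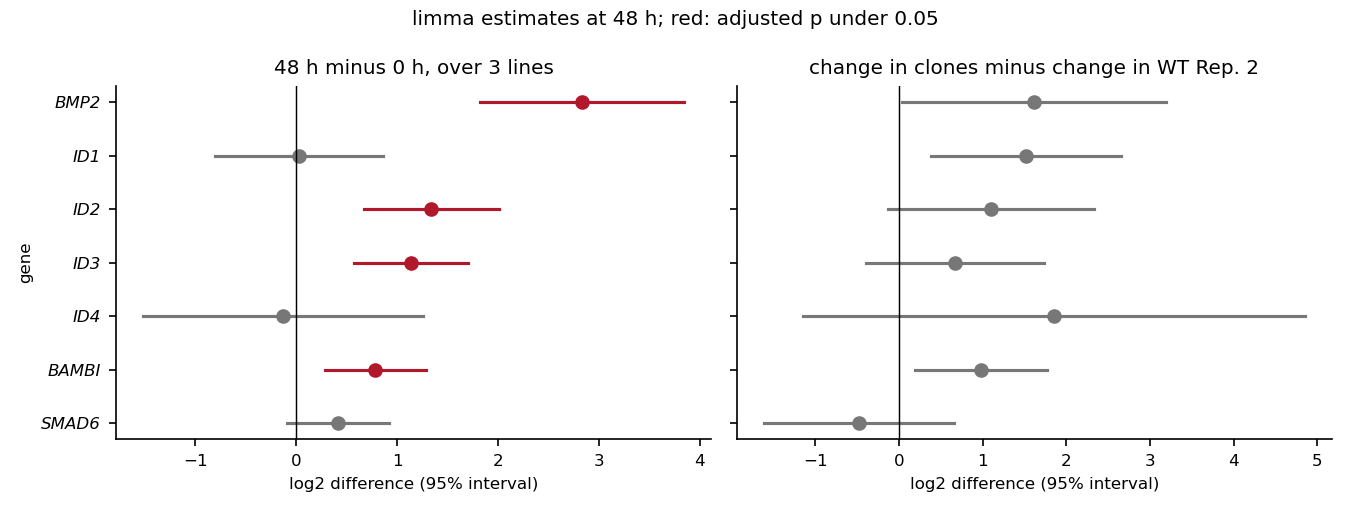
limma estimates at 48 h for the 7 genes as log2 differences (x axis) with 95% intervals (bars), for the change over the 3 lines (left) and for the excess of the clones' change over that of WT Rep. 2 (right). Red marks adjusted p under 0.05, reached on the left by *BMP2*, *ID2*, *ID3* and *BAMBI* and on the right by no gene.

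Genes whose levels over the 12 libraries were most like those of *BMP2*, *ID2* and *ID1*, the 3 with the largest changes in the first series, were listed by Pearson's r on log2 of level plus 0.05. For *BMP2* they were *KCNV1* (r = 0.957), *FLRT3* (r = 0.952) and *ANXA2P2* (r = 0.949), a pseudogene that may share reads with its parent gene. For *ID2* they were *VAMP8* (r = 0.950), *ZNF518B* (r = 0.943) and *S1PR3* (r = 0.936). For *ID1* the nearest were less close, *MN1* (r = 0.869), *FGFR3* (r = 0.826) and *FLNC* (r = 0.809). Among the genes themselves *ID2* was closest to *BAMBI* (r = 0.887), *BMP2* to *BAMBI* (r = 0.805), and *ID1* to *ID4* (r = 0.731), whereas *ID1* and *ID3* had r = -0.279. All libraries of a gene share the WT Rep. 2 maximum and the same 4 times, and the values are given as a description.

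Other genes of the pathway were taken from a list of 62, of which 31 were listed in the first WT series. At 48 h, on RPKM plus 1, 7 of the 31 were at least 2-fold higher, against 4.86% of all 10975 genes. Of the rest, 1 was lower and 23 were under 2-fold, and the median log2 change of the 31 was 0.21. None of the 4 listed receptors, the 3 signal-transducing SMADs, the 8 intracellular modulators or the 3 E-protein partners reached 2-fold on this scale. The nearest was *BMPR2*, a type II receptor, which went from 7.1 to 15 RPKM, a log2 change of 0.98 on RPKM plus 1 but past 2-fold on RPKM itself. *GDF3*, a ligand of the same superfamily, was at 11.6, 51.8, 138.5 and 81.9 RPKM, highest at 24 h, when *BMP2* was still low.

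Among secreted antagonists, *CER1* was at 1.8, 6.7, 466.7 and 634 RPKM, and *FST*, which binds activins and some BMPs, at 7.5, 35.2, 43.8 and 47.1. *TWSG1*, a BMP-binding protein, went from 13.9 to 29.8 RPKM and *CHRDL1*, a chordin-like antagonist, from 7 to 1.5. The 3 other listed BMP targets stood near 0 until 24 h, *MSX1* at 11.4, *MSX2* at 13.1 and *TBX3* at 12.2 RPKM at 48 h. They are listed only through that 48 h level, as the limit was a maximum of at least 4 RPKM. The other 8 of the 11 such targets taken up were not listed, so the 3 do not stand for BMP targets in general. Of the list of 62 genes, 5 are in the second table. All 5 passed the test there at 48 h over the 3 lines, against 76.5% of the table in either direction. *CER1* rose by 4.69 ± 0.44 (limma adjusted p = 3.78e-05) and *TBX3* by 4.68 ± 0.74 (limma adjusted p = 0.000477). At 0 h *CER1* was at 0 in all 3 lines, and *TBX3* was at 0.11, 0 and 0.1 in WT Rep. 2, dZF1 and dZF2. The sizes of these rises therefore depend largely on the pseudocount, which their SEs do not measure. The same holds for the *CER1* values at 24 h, when WT Rep. 2 was at 0.02. *GDF3* rose by 2.54 ± 0.40 (limma adjusted p = 0.000477) and *FST* by 0.97 ± 0.27 (limma adjusted p = 0.00944). *CHRDL1* fell by 0.86 (SE 0.18, limma adjusted p = 0.00205). Of the 5, *GDF3*, *FST* and *CER1* also rose at 24 h (2.78 ± 0.40, 1.34 ± 0.27 and 1.91 ± 0.44, limma adjusted p = 0.00385, 0.0133 and 0.0211). At that time 19.9% of the table passed in either direction, and none of the 7 genes did. At 24 h *GDF3* and *CER1* were higher in the clones than in WT Rep. 2 (1.82 ± 0.25 and 2.14 ± 0.37, limma adjusted p = 0.0139 and 0.0226), whereas *FST* missed the threshold (1.01 ± 0.31, limma adjusted p = 0.0747).

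**Figure D5:**
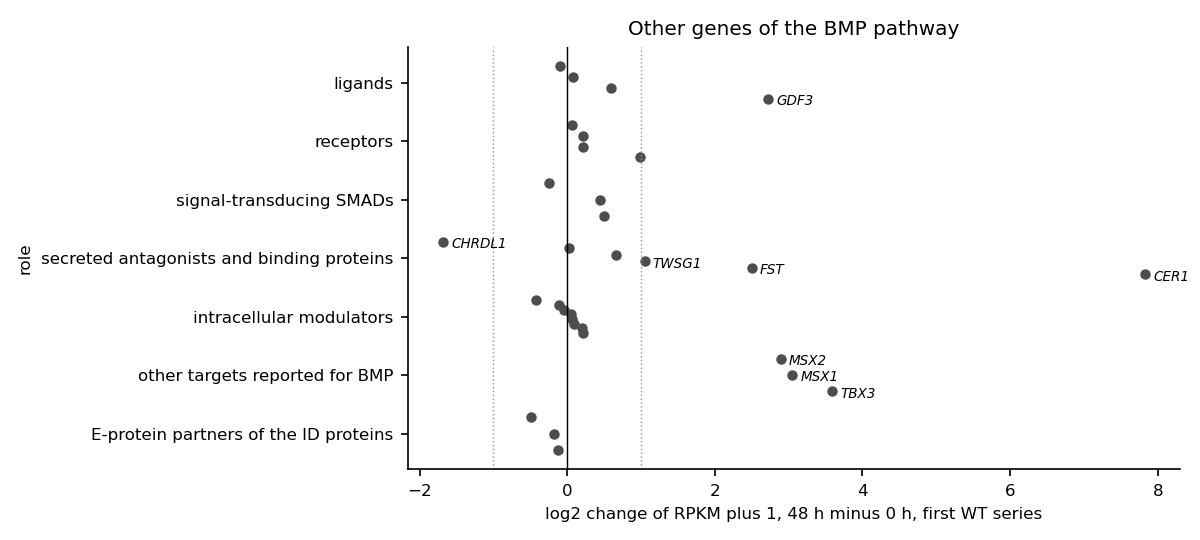
Log2 change of RPKM plus 1 at 48 h in the first WT series (x axis) of the 31 other pathway genes listed, by role (rows), with dotted lines at 2-fold. The 8 genes past 2-fold are named, and *CER1* lies farthest out at 7.83.

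The last comparison asked whether SP5 peaks lay near the genes. The lists hold 540 peaks against a Wnt3a-treated control and 542 against a buffer-treated control, and the labels and the study's methods describe them as H1 cells without Wnt3a and with it for 24 h. The file headers go against this, as both name the same ChIP library of 18641194 tags, by a name that reads as H9 cells with Wnt3a. The peaks nearest to *ID1* and *SMAD7* had the same summit and the same number of tags in both lists, 48 and 38. The study itself reported no significant SP5 binding in untreated cells. The lists are therefore read as 1 ChIP library set against each of the controls, and they are not compared as treatments here. Whether the cells of the peaks were H1 or H9 could not be settled from these files. Within 100000 bases of a start site on hg19, 3 of the 10 genes had a peak in both lists, *BMP7*, *SMAD7* and *ID1*, against 6.59% and 6.05% of 20176 protein-coding genes. Neither *BMP7* nor *SMAD7* reached 2-fold in the first series, and both are outside the table of the clones.

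At *SMAD7* (chr18:46446223-46477335, minus strand) the peak chr18:46485647-46486732 had its summit 9017 bases upstream, between protein-coding genes, with 38 tags, a 7.74-fold enrichment and a false discovery rate of 26.5% against the Wnt3a-treated control. The peak nearest to *ID1*, chr20:30281361-30282581, lay 88813 bases downstream of the *ID1* start and within an intron of *BCL2L1*, with 48 tags and a rate of 28.3%. No gene of the 10 kept a peak at a false discovery rate of at most 5%. The sequence at the *SMAD7* peak is shown for 100 bases to each side of its summit (chr18:46486252-46486452, minus strand), from hg19 and 5′ to 3′ on the gene's strand, with GGGCGG and GGGAGG of either strand in capitals.
SMAD7: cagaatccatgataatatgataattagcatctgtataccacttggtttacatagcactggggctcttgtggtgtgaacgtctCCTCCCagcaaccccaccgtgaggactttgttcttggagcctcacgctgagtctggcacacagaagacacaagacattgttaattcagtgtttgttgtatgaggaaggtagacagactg
The stretch holds 1 GGGAGG and no GGGCGG and is 45.8% G and C. For the other 7 genes the nearest listed peak lay farther than 200000 bases away in both lists.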

How the data were processed

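RNA was ribo-depleted and, per the paper's methods, reads were aligned to hg19 with TopHat and RPKM computed with Cuffdiff by the authors. Versions and annotation are not given in the sources used here. The authors deposited RPKM (1 decimal) for the first WT series, for genes with a maximum of at least 4. For the second experiment the authors divided RPKM by the gene's highest WT value there and deposited the WT library values as a fraction and the clone values as a ratio. The deposited peak lists (MACS 1.4.2, p-value cutoff 1e-05) give for each peak the tag count, a score on a log10 scale of p, a fold enrichment and the percent false discovery rate. The labels also list Bowtie 0.12.7 and SAMtools 0.1.12a, without their role.

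Samples were grouped by their labels, and 0 columns were left out. Log2 changes used a pseudocount of 1 RPKM or 0.05 of the maximum. limma 3.58.1 in R 4.3.3 was fitted to all 497 genes and 12 libraries, with Benjamini-Hochberg adjustment over all 497 and a threshold of 0.05. Changes with time, and the difference in change between clones and WT, had line as a term. Levels at one time had none, and there the single WT library at each time was taken to vary like the clones, with 4 residual degrees of freedom. The limma code was also run on simulated normal noise with added changes. That noise had no line differences and no zeros, unlike the deposited values, so the run checks the code alone. Peaks were measured from the start sites of GENCODE genes on the same build. Python 3.11.15, pandas 2.3.3, numpy 2.4.6, pysam 0.24.0 and matplotlib 3.10.9 were used. The genes and lists were chosen with earlier results of these data known. Other pathway genes were named when past 2-fold at 48 h in the first series or past the threshold in limma, *BMPR2* after its value was seen, and the 3 most correlated genes were named for the 3 genes with the largest change. Alternatives were other pseudocounts, filters, scalings, models, distances and left-out lines. The details of 1 peak are not reported here.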

Additional observations from a re-analysis of the deposited data

Results flagged for a closer look

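*ID1* stood out because it was lower at 48 h than at 0 h in WT Rep. 2 and higher in both clones. The change in the clones exceeded that in WT Rep. 2 by 1.52 on the log2 scale, with a limma adjusted p = 0.209, so it failed the correction over 497 genes (range over the alternatives 0.135 to 0.235).

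*ID1* and *ID4* stood out because their change at 48 h had opposite signs in the WT series. The change in WT Rep. 2 minus that in the first WT series was -3.07 for *ID1* and -2.94 for *ID4*, on log2 scales with different pseudocounts. The difference was not tested, as each series has 1 library at each time. In WT Rep. 2 *SP5* was also later than in the first series, and the part of this in the difference was not tested.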

How the results depend on the processing

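In the first WT series the count of 7 genes past 2-fold held for the other pseudocounts, filter and scaling. It was 6 against 12 h, where *ID4* was at 0.83 and *BMP4* turned to -0.047, and 2 with WT Rep. 2 in its place, where *ID1* was at -0.99 and *ID4* at -1.36. Over all genes, 342 rather than 857 passed with a pseudocount of 5 RPKM and 479 with a maximum of at least 10. For the change at 48 h over the 3 lines, 1 of the 7 genes rather than 4 passed with each library centred on its median, and *ID1* turned to -0.73 and *SMAD6* to -0.34. Leaving out a line, or the 24 h library of dZF2 (chosen after seeing the data), gave 2 to 4 genes, and 263 to 386 of the table. *ID1* then ranged from -0.36 (without dZF2) to 0.54 (without WT Rep. 2), and *ID4* from -0.79 (without dZF2) to 0.49 (without WT Rep. 2). No replicate block (no line term) gave 3 genes, *ID3* missing at an adjusted p = 0.0732, and 349 rather than 380 of the table. It changed no other call on these genes, and the line is the block because all times of a line share its origin. For clones against WT Rep. 2 at 48 h, 30 genes rather than 5 of the table passed with a pseudocount of 0.2 and 0 with a mean-variance trend in limma (114 at an unadjusted p under 0.05), none of them of the 7. Without dZF1 or dZF2 the differences between clones and WT have no residual degrees of freedom and are values with no test, and of these only *ID4* at 48 h turned, with -0.11 without dZF2 and 1.15 without dZF1. Genes within reach of a peak numbered 2 at 50000 bases, 3 at 200000 bases and 0 at a false discovery rate of at most 5%. Depth is unknown, so no counting error is given for any RPKM.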
